A study of Mus musculus with 9 samples.

Results

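The 9 enzymes described here carry out the steps of cholesterol synthesis that are specific to sterols, from squalene synthase (Fdft1) to the last reductase (Dhcr7). They are Fdft1, Sqle, Lss, Cyp51, Msmo1, Nsdhl, Ebp, Sc5d and Dhcr7, and they were taken by gene name, with every probe set annotated to them, out of 18194 genes on the array. All 9 were bright enough to be tested, among 13447 tested genes. They were read in mouse cumulus cells, the granulosa cells next to the oocyte, on 9 Affymetrix arrays of 3 genotypes with 3 arrays each. The mutants were double mutants (DM), which lack Bmp15 and carry 1 lost copy of Gdf9 (Bmp15-/-Gdf9+/-), and Bmp15-/- single mutants, and the controls were wildtype. The DM females thus share the Bmp15 deletion with the single mutants. Per the labels' protocols, females of all 3 genotypes had a mixed B6/129 background, were 4 to 5 months old and were given 5 IU of eCG, a gonadotropin that stimulates follicle growth, 48 hours earlier. A sample pooled the cumulus cells of 75 to 100 complexes from 3 to 4 mice, collected in 5 µM milrinone, which keeps oocytes in meiotic arrest. From each sample 10 ng of RNA was amplified through repeated rounds. The samples of a genotype are separate pools, so the p-values below measure the spread between pools and not between single mice.

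BMP15 and GDF9 are growth factors that the oocyte secretes and that act on the granulosa cells around it. Cholesterol is built from acetyl-CoA through mevalonate to farnesyl diphosphate, which also feeds other products. From squalene onwards the chain leads only to sterols, and its genes are switched on by the SREBP transcription factors when membranes run low in cholesterol. Mouse oocytes are known to make little cholesterol themselves and to receive it from cumulus cells, and an intermediate of the chain, the product of Cyp51, was first purified from follicular fluid as a sterol that promotes meiosis.

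SREBP factors act at promoters together with NF-Y, which binds CCAAT boxes, and with Sp1. The promoter windows of 4 of the enzymes are shown because these genes span the range of changes in DM against wildtype at each gene's brightest probe set, from Lss, which fell furthest there, to Ebp, which fell least. Each line gives the 250 bases before the transcription start of 1 RefSeq entry (GRCm38.p6), 5′ to 3′ on the gene's own strand, and capitals mark CCAAT or its reverse complement ATTGG. The Lss window lies at chr10:76531355-76531604 on the plus strand, the Cyp51 window at chr5:4104698-4104947 on the minus strand, the Msmo1 window at chr8:64733579-64733828 on the minus strand and the Ebp window at chrX:8193513-8193762 on the minus strand.
Lss: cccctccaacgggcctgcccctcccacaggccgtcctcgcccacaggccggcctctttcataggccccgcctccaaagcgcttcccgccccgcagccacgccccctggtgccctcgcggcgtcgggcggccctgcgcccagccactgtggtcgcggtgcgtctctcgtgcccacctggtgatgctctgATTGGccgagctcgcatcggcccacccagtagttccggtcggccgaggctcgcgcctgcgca
Cyp51: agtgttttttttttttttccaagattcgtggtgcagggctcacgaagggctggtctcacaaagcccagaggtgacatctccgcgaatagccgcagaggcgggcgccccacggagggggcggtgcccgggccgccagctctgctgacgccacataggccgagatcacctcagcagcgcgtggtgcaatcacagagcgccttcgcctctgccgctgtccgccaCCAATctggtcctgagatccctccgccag
Msmo1: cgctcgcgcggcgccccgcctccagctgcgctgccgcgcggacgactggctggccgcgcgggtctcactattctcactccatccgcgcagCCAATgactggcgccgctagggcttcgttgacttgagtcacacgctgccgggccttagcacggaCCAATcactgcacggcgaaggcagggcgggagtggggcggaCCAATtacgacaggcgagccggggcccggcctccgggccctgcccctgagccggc
Ebp: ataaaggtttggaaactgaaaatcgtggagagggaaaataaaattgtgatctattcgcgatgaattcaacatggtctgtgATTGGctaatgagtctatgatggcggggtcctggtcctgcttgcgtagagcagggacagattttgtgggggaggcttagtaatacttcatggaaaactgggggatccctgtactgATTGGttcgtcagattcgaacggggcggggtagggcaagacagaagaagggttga
RefSeq windows were matched for 7 of the 9 genes, without Fdft1 and Sqle, and Dhcr7 had 3 of the 9 windows. The CCAAT box, read on both strands, was present in a window of 7 of 7 genes and in 7 of 9 windows, against 37.5% of 27025 genes and 33.8% of 32851 windows of the same length. The Sp1 box GGGCGG was present for 7 of 7 genes and in 8 of 9 windows, against 35.4% of genes and 32.7% of windows. In the windows shown the boxes begin 29 to 170 bases before the start. Base composition differed too: the windows of Lss, Msmo1 and Cyp51 were 73.6%, 72% and 62.8% G or C against a median of 52.4% over all windows, while the Ebp window, at 47.2%, was below it. The E-box CACGTG was found for 2 of 7 genes, against 6.86% of all genes. The sterol element spelled TCACNCCAC was found for 0 of 7 genes, against 1.22% of all genes, which says only that these letters are not in these windows. Each motif was counted on its own, whether or not a match overlapped that of another, and a match is a description of the sequence and not a bound site.

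The values are log2 expression values deposited by the authors, on which a step of 1 is a 2-fold difference, and no level is compared between probe sets. The arrays correlated at 0.988 or more within a genotype and at 0.975 or more between genotypes. Of 9 cumulus and granulosa markers on the array, 9 were above the dimness limit on all 9 arrays, Inha and Fshr among them. Of 15 oocyte markers 8 were above it on all arrays, Bmp15 among them. The median level of all 15 was 5.05 to 5.63 on DM arrays, 5.21 to 6.15 on Bmp15-/- arrays and 5.36 to 6.51 on wildtype arrays. The main Bmp15 probe set read 5.05, 5.09 and 5.08 on DM arrays, 5.10, 5.08 and 5.10 on Bmp15-/- arrays, and 5.10, 9.58 and 8.41 on wildtype arrays. Wildtype 1 thus lay at the level of the mutants, for a transcript of the oocyte that cumulus cells are not known to make. This probe set counted as above the limit on all 9 arrays, also in the mutants that lack Bmp15. Being above the limit is therefore no proof that a transcript was present. Gdf9, another oocyte transcript, read 4.67, 5.30 and 5.63 on DM arrays, 5.70, 6.59 and 4.99 on Bmp15-/- arrays and 5.03, 8.12 and 6.56 on wildtype arrays. Markers of other cells were mixed. Above the limit on all 9 arrays were 2 of 4 theca and stroma markers (Pdgfra, Col1a1), 2 of 3 immune (Ptprc, Cd68), 1 of 3 endothelial (Cdh5) and 3 of 4 surface epithelium markers (Krt8, Krt18, Upk3b), while Dcn, Adgre1, Pecam1, Kdr, Krt19 and Hba-a1 were above it on 0 arrays and Cyp17a1 on 1. Pdgfra averaged 9.20 in DM, 8.56 in Bmp15-/- and 7.63 in wildtype samples, and the erythroid marker Alas2 5.06 in DM, 5.66 in Bmp15-/- and 7.64 in wildtype samples. In DM against wildtype 3 of 9 tested cumulus and granulosa markers fell and 3 rose, 1 of 14 tested oocyte markers fell, 2 of 2 theca and stroma and 2 of 3 surface epithelium markers rose, and 1 of 1 erythroid marker fell. In Bmp15-/- against wildtype 1 oocyte and 1 erythroid marker fell, and 1 theca and stroma and 1 surface epithelium marker rose. The part of other cells and of these markers in the results below was not tested.

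In DM cumulus cells all 9 enzymes, read at each gene's brightest probe set, fell against wildtype, by 1.41-fold (Ebp) to 3.15-fold (Lss). For every enzyme the 3 DM arrays lay below the 3 wildtype arrays. The median change of the 9 was -1.33 on the log2 scale, against -0.06 over all tested genes. A gene was called when its Benjamini-Hochberg adjusted p from limma, over all 13447 genes, was under 0.05. Falls were common in this comparison: 18.2% of all tested genes fell, 9.95% rose, and 27.4% had all DM arrays below all wildtype arrays. After quantile normalization the calls were more evenly split, with 51.7% of them lower against 64.6% as deposited, and the same 9 enzymes were called. In bulk samples, fewer cells of a type and less RNA per cell cannot be told apart.

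**Figure D1:**
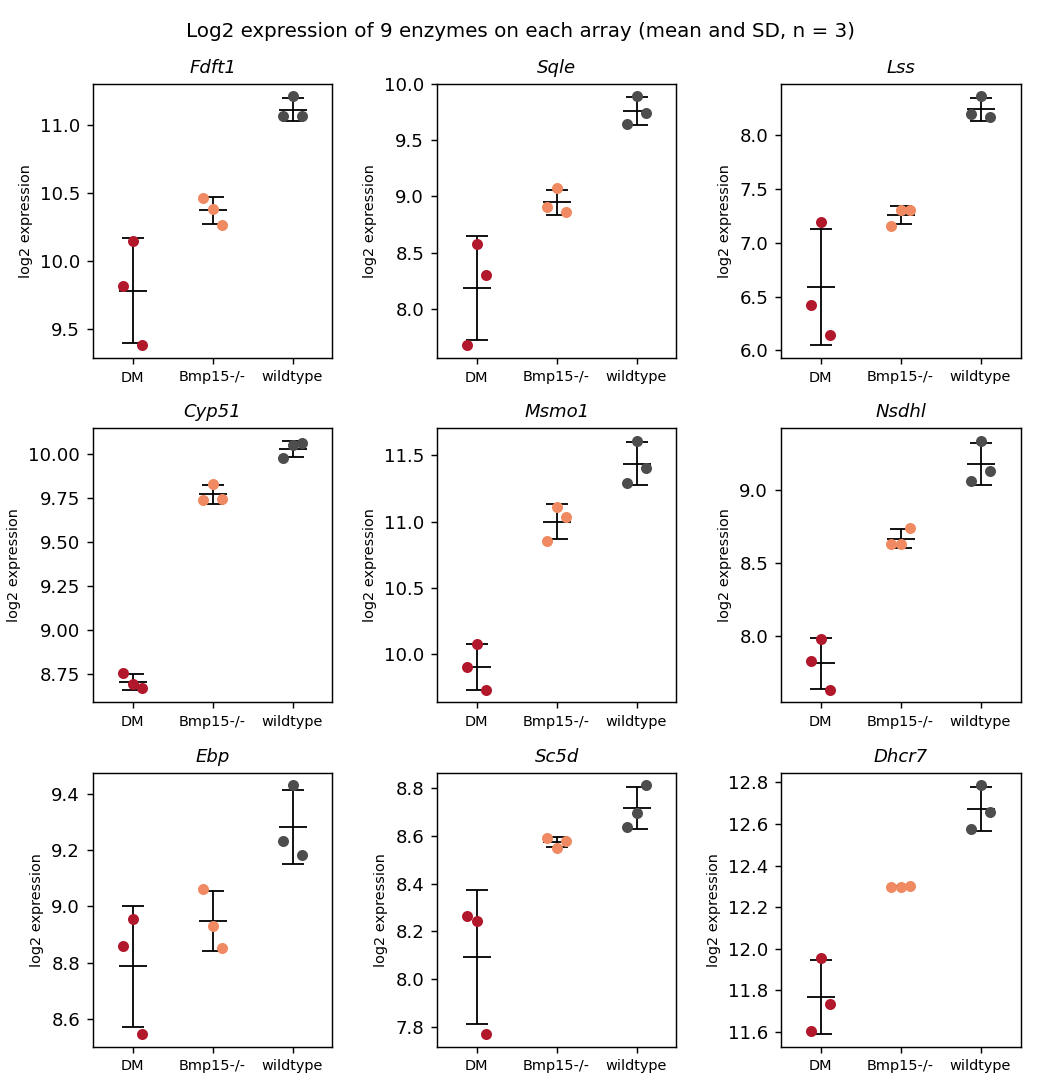
Log2 expression of the 9 enzymes in pathway order, with a panel for each gene, an own vertical scale in each panel, and DM, Bmp15-/- and wildtype from left to right. Points are single arrays, and bars give the mean and SD of 3 arrays. In all 9 panels the wildtype points lie above both mutants, and in 7 the DM points lie below the Bmp15-/- points, with overlap for Lss and Ebp.

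Fdft1, squalene synthase, joins farnesyl diphosphate units into squalene and so commits them to sterols. It read 9.82, 10.15 and 9.38 on DM arrays, 10.46, 10.39 and 10.27 on Bmp15-/- arrays, and 11.06, 11.21 and 11.06 on wildtype arrays. The 3 genotypes did not overlap, and the DM arrays were the most scattered, with an SD of 0.39 against 0.10 in Bmp15-/- and 0.09 in wildtype samples. The difference was -1.33 ± 0.17 (SE) in DM against wildtype, or 2.52-fold (adjusted p = 0.000617).

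Sqle, squalene epoxidase, adds the oxygen that lets squalene close into rings and is a known control point of the pathway. It read 7.68, 8.58 and 8.31 on DM arrays, 8.91, 9.07 and 8.86 on Bmp15-/- arrays, and 9.64, 9.89 and 9.74 on wildtype arrays. DM 1 was the lowest array by a clear margin, and the genotypes were again separate. In DM against wildtype the change was -1.57 ± 0.20 (SE), or 2.97-fold (adjusted p = 0.000588).

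Lss, lanosterol synthase, closes the ring system of the first sterol. Its DM arrays read 6.43, 7.19 and 6.15, its Bmp15-/- arrays 7.16, 7.30 and 7.30, and its wildtype arrays 8.20, 8.36 and 8.17. DM 2 lay among the Bmp15-/- arrays while the other DM arrays lay well below them, so the mutants overlapped. Against wildtype the DM value was -1.65 ± 0.22 (SE), the largest change of the 9 at the brightest probe sets (adjusted p = 0.00081). With the mean of a gene's probe sets Cyp51 (-1.61) and Sqle (-1.57) fell further than Lss (-1.45).

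Cyp51, the cytochrome P450 that takes a methyl group off lanosterol to give the follicular fluid sterol named above, was read at 8.75, 8.69 and 8.67 on DM arrays, 9.74, 9.83 and 9.74 on Bmp15-/- arrays, and 9.98, 10.05 and 10.06 on wildtype arrays. At this brightest probe set the DM arrays lay close together with an SD of 0.04, far below both other genotypes. The Bmp15-/- arrays lay just under wildtype. The fall in DM against wildtype was -1.32 ± 0.08 (SE), or 2.50-fold (adjusted p = 1.30e-05), which ranked 16 of all tested genes by p.

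Msmo1 and Nsdhl, an oxidase and a dehydrogenase that work in turn to remove further methyl groups from the sterol ring, had the same order. Msmo1 read 9.90, 10.08 and 9.73 on DM arrays, 10.85, 11.11 and 11.04 on Bmp15-/- arrays, and 11.29, 11.61 and 11.41 on wildtype arrays. Nsdhl read 7.83, 7.98 and 7.63 on DM arrays, 8.63, 8.63 and 8.74 on Bmp15-/- arrays, and 9.06, 9.34 and 9.13 on wildtype arrays. For both genes the genotypes were separate, and the Bmp15-/- arrays lay nearer to wildtype than to DM. Msmo1 fell by 1.53 ± 0.12 (SE) on the log2 scale in DM against wildtype (adjusted p = 7.51e-05), and Nsdhl fell by 1.36 ± 0.11 (SE) (adjusted p = 8.53e-05).

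The isomerase Ebp and the desaturase Sc5d move and add ring double bonds late in the chain. They changed least of the 9 in DM against wildtype, at each gene's brightest probe set. Ebp read 8.86, 8.95 and 8.54 on DM arrays, 9.06, 8.93 and 8.85 on Bmp15-/- arrays, and 9.23, 9.43 and 9.18 on wildtype arrays. Sc5d read 8.27, 8.24 and 7.77 on DM arrays, 8.59, 8.55 and 8.58 on Bmp15-/- arrays, and 8.64, 8.70 and 8.81 on wildtype arrays. The mutants overlapped for Ebp, and DM 3 was the lowest array for both genes. In DM against wildtype Ebp fell by 0.50 ± 0.12 (SE) on the log2 scale (adjusted p = 0.0158) and Sc5d fell by 0.62 ± 0.13 (SE) (adjusted p = 0.00731). The Ebp call was lost without wildtype 2 (-0.42, adjusted p = 0.0617).

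Dhcr7 makes cholesterol from its direct precursor. It read 11.60, 11.96 and 11.73 on DM arrays, 12.30 on each of the 3 Bmp15-/- arrays, and 12.58, 12.79 and 12.66 on wildtype arrays. The genotypes were separate, with the Bmp15-/- arrays almost at 1 value (SD 0.00275). Some deposited values were exactly equal on different arrays: of the 9 enzymes, 3 (Lss, Nsdhl and Dhcr7) had such a tie among their Bmp15-/- arrays and 0 among their DM or wildtype arrays, against 10.2%, 7.60% and 7.25% of all probe sets in Bmp15-/-, DM and wildtype samples. Dhcr7 fell by 0.91 ± 0.10 (SE) on the log2 scale in DM against wildtype, or 1.88-fold (adjusted p = 0.000376).

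In Bmp15-/- cumulus cells 4 of the 9 enzymes, read at each gene's brightest probe set, fell against wildtype. These were Fdft1 by 1.67-fold, Sqle by 1.75-fold, Lss by 1.98-fold and Nsdhl by 1.42-fold. For all 9 the 3 Bmp15-/- arrays lay below the 3 wildtype arrays, as did those of 23.4% of all tested genes. Over all tested genes 5.78% fell and 3.29% rose. The median change of the 9 was -0.44, against -0.04 over all genes. After quantile normalization 46.8% of all calls were lower, against 63.7% as deposited, and the same 4 enzymes were called.

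On the log2 scale the called values in Bmp15-/- against wildtype were -0.74 ± 0.17 for Fdft1, -0.81 ± 0.20 for Sqle, -0.99 ± 0.22 for Lss and -0.51 ± 0.11 for Nsdhl (SE), with adjusted p of 0.0273, 0.035, 0.0263 and 0.0246 from limma. These are the enzymes that form squalene and close its rings, and Nsdhl further down. Msmo1 (-0.44 ± 0.12, adjusted p = 0.0564), Dhcr7 (-0.37 ± 0.10, adjusted p = 0.0542) and Cyp51 (-0.26 ± 0.08, adjusted p = 0.0622) missed the threshold narrowly. Ebp had -0.33 ± 0.12 (adjusted p = 0.122) and Sc5d had -0.14 ± 0.13 (adjusted p = 0.525). Calls, but not the size of the changes, were lost when a Bmp15-/- or wildtype array was left out. Without any 1 of the Bmp15-/- arrays, or without wildtype 2 or wildtype 3, 0 enzymes were called. Without wildtype 1 only Nsdhl was (adjusted p = 0.0451). Falls over all 13447 tested genes became fewer too, at 293 to 570 in these fits against 777 with all arrays. No change of sign occurred for any of the 9. The changes themselves stayed about as large, at -0.79 to -0.69 for Fdft1, -0.87 to -0.74 for Sqle, -1.02 to -0.93 for Lss and -0.57 to -0.43 for Nsdhl with any 1 array left out.

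The comparison of DM with Bmp15-/- asks what the lost Gdf9 copy adds on the Bmp15-/- background. Here 4 of the 9 enzymes fell, namely Cyp51, Msmo1, Nsdhl and Dhcr7, while only 1.61% of all tested genes fell and 1.64% rose. The DM arrays lay below the Bmp15-/- arrays for 7 of the 9, against 12.5% of all genes. The median change of the 9 was -0.67, against -0.03 over all genes. Each comparison shares arrays with the others, so the 3 sets of values are not independent.

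At its brightest probe set Cyp51 fell by 1.06 ± 0.08 (SE) on the log2 scale in DM against Bmp15-/-, or 2.09-fold (adjusted p = 0.000763). It ranked 2 among the 13447 genes by p. Msmo1 fell by 1.10 ± 0.12 (2.14-fold, adjusted p = 0.00583), and Nsdhl fell by 0.85 ± 0.11 (1.81-fold, adjusted p = 0.0077). Both act further down than Cyp51, after the reduction of its product. Dhcr7 fell by 0.53 ± 0.10 (1.45-fold, adjusted p = 0.0286). That call was lost without wildtype 3, DM 1, DM 3 or any 1 of the Bmp15-/- arrays, at adjusted p between 0.0547 and 0.0994. It was also lost with only the 2 genotypes compared (adjusted p = 0.0892).

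The first 3 enzymes did not pass in DM against Bmp15-/-: Fdft1 had -0.59 ± 0.17 (adjusted p = 0.0914), Sqle -0.76 ± 0.20 (adjusted p = 0.069) and Lss -0.67 ± 0.22 (adjusted p = 0.133). Their differences were larger than that of Dhcr7, but their DM arrays spread over an SD of 0.39 to 0.54. Without DM 2 all 3 were called, which made 7 of 9. They had -0.77 for Fdft1, -0.96 for Sqle and -0.97 for Lss (adjusted p of 0.0158, 0.018 and 0.00386). In that fit 2791 of all tested genes fell in DM against wildtype (main fit 2442) and 1117 in Bmp15-/- against wildtype (main fit 777). Sc5d had -0.48 ± 0.13 (adjusted p = 0.0794) and Ebp -0.16 ± 0.12 (adjusted p = 0.514). Whether the changes of 1 enzyme differ from those of another was not tested.

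**Figure D2:**
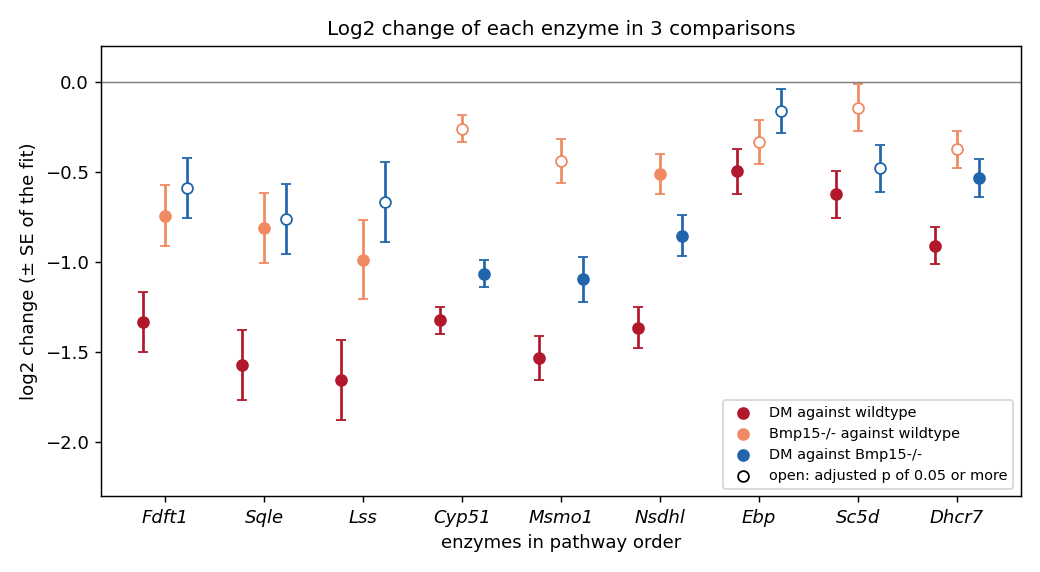
Log2 change of each enzyme, in pathway order on the horizontal axis, with the SE of the fit, for DM against wildtype, Bmp15-/- against wildtype and DM against Bmp15-/-. Filled points passed an adjusted p under 0.05 and open points did not. All 9 points of DM against wildtype are filled; Fdft1, Sqle, Lss and Nsdhl are filled in Bmp15-/- against wildtype, and Cyp51, Msmo1, Nsdhl and Dhcr7 in DM against Bmp15-/-.

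The arrays of a genotype also differed among themselves, in DM and wildtype in much the same way for most of the enzymes. The median of the 9, each relative to its wildtype mean, was -1.30, -1.05 and -1.45 for DM, -0.55, -0.38 and -0.43 for Bmp15-/-, and -0.08, 0.12 and -0.03 for wildtype arrays. DM 2 was the highest DM array for 7 of the 9 enzymes and DM 3 the lowest for 7, and wildtype 2 was the highest wildtype array for 7 and wildtype 1 the lowest for 7. The Bmp15-/- arrays had no such order, being highest for 3, 4 and 2 enzymes and lowest for 5, 1 and 3. Within DM, at the brightest probe sets, the widest spread was that of Lss and Sqle, and the narrowest that of Cyp51. The other Cyp51 probe sets, 1422533_at and 1422534_at, had DM SDs of 0.32 and 0.34.

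The 3′ minus 5′ difference of the Gapdh control probe sets, a sign of how far amplification ran from the transcript ends, followed the same order of genotypes. It was 0.87, 0.95 and 0.79 on DM arrays, 0.72, 0.66 and 0.73 on Bmp15-/- arrays, and 0.59, 0.52 and 0.56 on wildtype arrays, without overlap. The same difference for actin was 1.85 to 2.12, 1.85 to 1.92 and 1.87 to 1.90 on DM, Bmp15-/- and wildtype arrays, with overlap. The interquartile range of all values was 3.24 ± 0.09 in DM, 3.23 ± 0.05 in Bmp15-/- and 3.40 ± 0.03 in wildtype samples (SD, n = 3 each). The part of either in the changes of the enzymes was not tested, and since the array numbers in the study's design text run in genotype order, array order and genotype cannot be told apart.

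**Figure D3:**
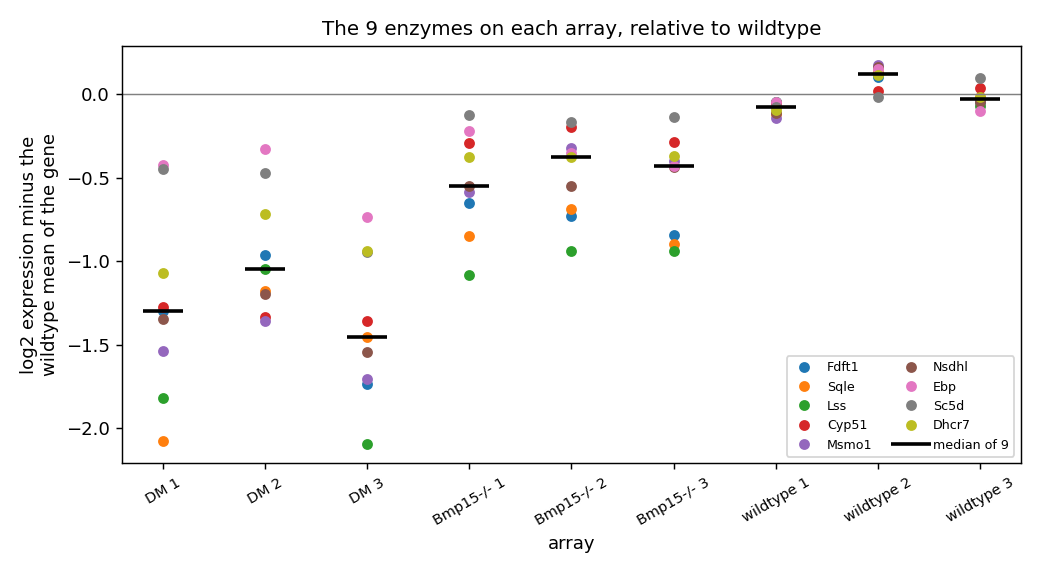
Log2 expression of each enzyme on each of the 9 arrays minus the wildtype mean of that gene, with a colour for each gene and a black bar at the median of the 9. The medians are -1.05 or lower on DM arrays, between -0.55 and -0.38 on Bmp15-/- arrays and between -0.08 and 0.12 on wildtype arrays, and DM 1 and DM 3 hold the lowest points, for Sqle and Lss.

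Several enzymes were read by more than 1 probe set, 19 in all, of which 18 were bright enough to test. The exception, a Sc5d probe set, was above the dimness limit on 0 arrays. In a fit over 23735 probe sets, 14 of the 18 fell in DM against wildtype (18.1% of all probe sets fell), 9 of 18 in Bmp15-/- against wildtype (5.24%), and 6 of 18 in DM against Bmp15-/- (1.20%). Probe sets of the same gene share the same RNA and are not replicates.

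For Cyp51 all 3 probe sets fell in DM against wildtype, and the other 2 also fell in Bmp15-/- against wildtype, unlike the brightest used above. Probe set 1422533_at had -1.99 ± 0.15 (SE) in DM against wildtype, or 3.96-fold (adjusted p = 6.77e-05), and -0.65 ± 0.15 in Bmp15-/- against wildtype (adjusted p = 0.0343). Probe set 1422534_at had -1.51 ± 0.17 in DM against wildtype (adjusted p = 0.000496) and -0.94 ± 0.17 in Bmp15-/- against wildtype (adjusted p = 0.015). In DM against Bmp15-/- the values were -1.34 (adjusted p = 0.00702) for the first of these and -0.56 (adjusted p = 0.126) for the second. Which comparisons held a Cyp51 call thus varied with the probe set, and whether the probe sets differ from each other was not tested. The mean of the 3 was called in Bmp15-/- against wildtype (-0.62, adjusted p = 0.00923).

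The brightest Fdft1 set, 1438322_x_at, is of a type whose probes can match other transcripts, so it was set beside 1448130_at, which gave nearly the same change in DM against wildtype (-1.37 ± 0.10, adjusted p = 5.99e-05). That set was also called in Bmp15-/- against wildtype (-0.78 ± 0.10, adjusted p = 0.00398) and in DM against Bmp15-/- (-0.60 ± 0.10, adjusted p = 0.0212). The other Fdft1 sets, 1438918_at and 1438919_x_at, had only -0.26 (adjusted p = 0.148) and -0.27 (adjusted p = 0.0708) in DM against wildtype. In Bmp15-/- against wildtype these sets had -0.12 (adjusted p = 0.59) and 0.002 (adjusted p = 0.993), and the arrays overlapped. All 3 Lss sets fell in both mutants against wildtype, with log2 changes of -1.65, -1.11 and -1.59 in DM and of -0.99, -0.71 and -0.76 in Bmp15-/-. The second sets of Msmo1 (-0.42, adjusted p = 0.0782) and Sc5d (-0.77, adjusted p = 0.0726) did not pass in DM against wildtype. In Bmp15-/- against wildtype they had -0.02 (adjusted p = 0.941) and -0.38 (adjusted p = 0.432), again with overlap. With the mean of a gene's probe sets in place of the brightest, the change in DM against wildtype was smaller for Fdft1 (-0.81) and Msmo1 (-0.98), and both were still called.

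**Figure D4:**
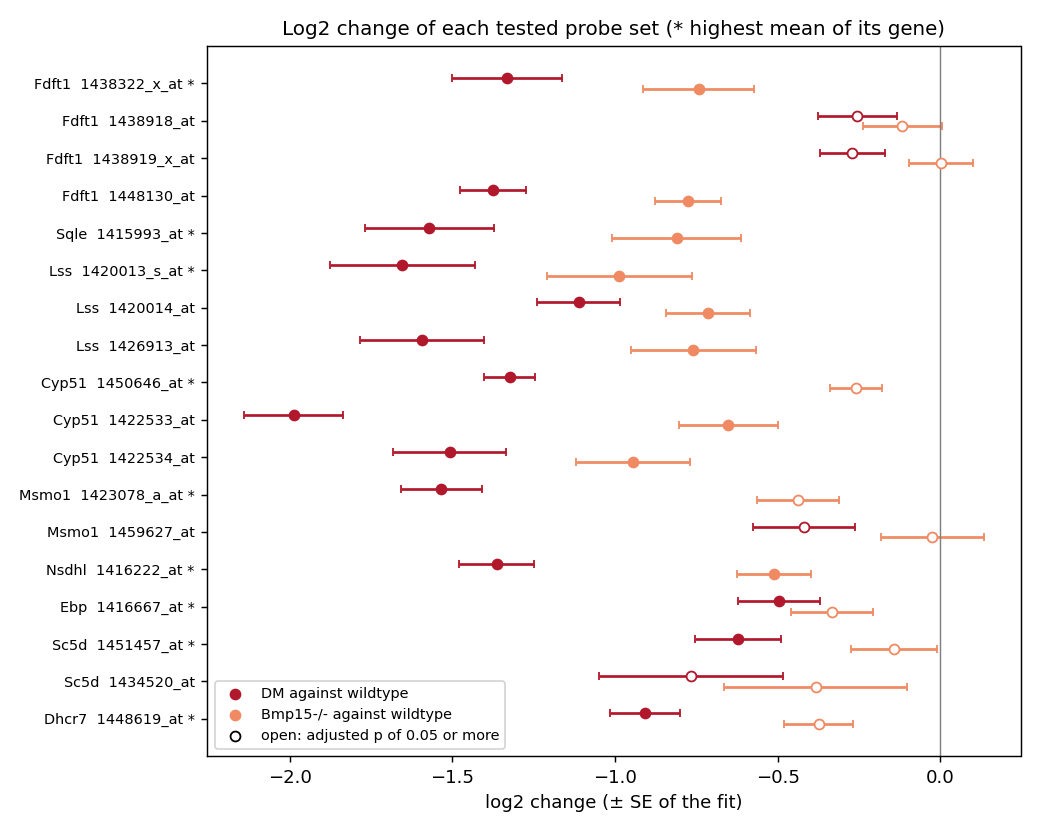
Log2 change with the SE of the fit for each of the 18 tested probe sets, in DM against wildtype and in Bmp15-/- against wildtype, with an asterisk at the brightest set of a gene. Of the 18 points of DM against wildtype 14 are filled (adjusted p under 0.05); the open ones are sets of Fdft1, Msmo1 and Sc5d.

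The neighbouring genes of the pathway were read from lists written for the purpose. Of the other enzymes after squalene, 4 of 4 tested fell in DM against wildtype (median -0.89): the sterol reductases Tm7sf2 (-1.83 ± 0.29, adjusted p = 0.00201) and Lbr (-0.46 ± 0.09, adjusted p = 0.0051), the ketoreductase Hsd17b7 (-0.99 ± 0.17, adjusted p = 0.00279) and Erg28, whose yeast counterpart tethers the demethylating enzymes (-0.78 ± 0.13, adjusted p = 0.00249). In Bmp15-/- against wildtype 0 of 4 were called by limma (median -0.43, unadjusted p of 0.0124 to 0.376, under 0.05 for 3), and in DM against Bmp15-/- 0 of 4 (median -0.46, all 4 with an unadjusted p under 0.05).

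Upstream, 5 of 6 tested genes of the mevalonate arm fell in DM against wildtype (median -1.06): Fdps, Mvd (-1.67), Idi1 (-1.34), Mvk (-0.78) and Hmgcs1 (-0.51). In Bmp15-/- against wildtype 3 of 6 fell, Fdps, Mvd and Mvk (median -0.37). A different 3 of 6, Fdps, Idi1 and Hmgcs1, fell in DM against Bmp15-/- (median -0.52). Fdps, which makes the substrate of Fdft1, read 8.18, 8.41 and 7.61 on DM arrays, 9.35, 9.41 and 9.47 on Bmp15-/- arrays, and 10.24, 10.43 and 10.24 on wildtype arrays, without overlap. Its change in DM against wildtype was -2.24, larger than that of any of the 9 enzymes.

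Of 7 genes that control SREBP, 3 fell in DM against wildtype: the factors Srebf2 (-0.93) and Srebf1 (-0.85) and their escort Scap (-0.85), with a list median of -0.12. Srebf2 read 10.29, 10.21 and 9.95 on DM arrays, 10.65, 10.70 and 10.72 on Bmp15-/- arrays, and 10.95, 11.25 and 11.06 on wildtype arrays, with no overlap. Insig1, which retains SCAP when sterols are ample and is itself a known SREBP target, had 12.95 ± 0.02 in DM, 13.13 ± 0.05 in Bmp15-/- and 13.07 ± 0.01 in wildtype samples (SD, n = 3 each) and was not called in DM against wildtype. In Bmp15-/- against wildtype 0 of 7 were called by limma (median -0.07, with 2 of 7 at an unadjusted p under 0.05), and in DM against Bmp15-/- 1 was, Srebf2 (-0.54, list median -0.18).

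Of 7 tested genes of sterol uptake and export, 3 fell and 1 rose in DM against wildtype (median -0.21). The sterol carrier Stard4 had -1.87, the lipoprotein receptors Vldlr and Scarb1 had -1.60 and -0.90, and Abca1, which exports cholesterol, rose by 0.92 ± 0.10 (adjusted p = 0.000274). Abca1 read 8.88, 8.71 and 9.05 on DM arrays, 8.20, 8.20 and 8.16 on Bmp15-/- arrays, and 7.92, 7.92 and 8.05 on wildtype arrays, so it ran opposite to the synthesis enzymes. In Bmp15-/- against wildtype 2 of 7 fell (Vldlr -1.41, Stard4 -0.63, list median -0.11), and in DM against Bmp15-/- 2 fell and 1 rose (Stard4 -1.24, Scarb1 -0.53, Abca1 0.70, list median -0.17). Abcg1 and Apoe were too dim to test.

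**Figure D5:**
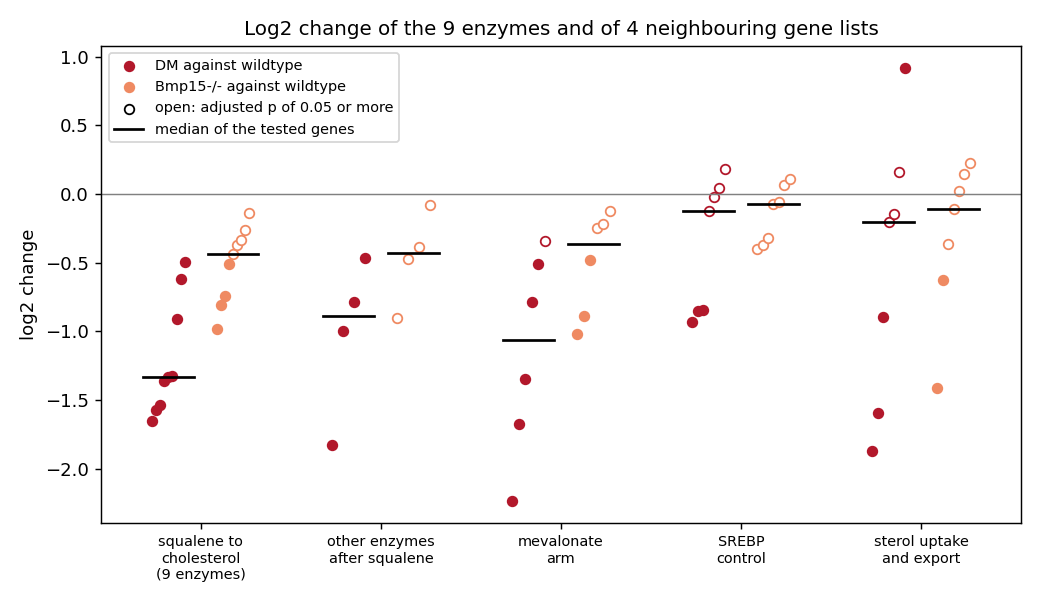
Log2 change of the 9 enzymes and of the tested genes of 4 neighbouring lists, with DM against wildtype left of Bmp15-/- against wildtype in each list. Filled points passed an adjusted p under 0.05, and black bars are medians of the tested genes, which in DM against wildtype are -1.33 for the 9 enzymes, -0.89, -1.06, -0.12 and -0.21; the highest point is Abca1.

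The genes whose pattern over the 9 arrays was most like the median of the 9 enzymes were found by the root mean square of the difference, with each gene relative to its own mean over the 9 arrays. Among 13438 other genes, whose median difference was 0.526, the nearest were Tmem97 (0.0825), Mif (0.0825), Aldoa (0.0838), Lrp8 (0.122) and St3gal3 (0.125). Tmem97 is a sterol-binding membrane protein, Mif a cytokine, Aldoa an aldolase of glycolysis, Lrp8 a lipoprotein receptor and St3gal3 a sialyltransferase. In DM against wildtype they had log2 changes of -1.27, -1.17, -1.26, -1.43 and -0.98. The 9 enzymes' own differences from their median were 0.109 (Nsdhl) to 0.328 (Ebp), so 3 of these genes followed the median more closely than any of the 9. Those 3 were picked by the same measure out of 13438 genes, so the contrast is no test of the enzymes.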

How the data were processed

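Affymetrix arrays of 45101 probe sets measured RNA of pooled cumulus cells, 3 arrays for each of DM, Bmp15-/- and wildtype. The values used are log2 expression values that the authors deposited. RMA and the affy package are named per the submitters' processing notes, without settings. RMA combines background correction, normalization between arrays and a summary over the probes of a set, and it compresses changes of dim transcripts. The values ran from 2.87 to 14.53, with array medians of 5.52 to 5.59. The number of arrays limits the precision.

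Names came from a platform annotation, updated through gene identifiers to RefSeq (GRCm38.p6). Of the probe sets, 34958 had 1 gene, 932 several and 9211 none listed, and 34754 were found in RefSeq. Each gene was read at its brightest probe set (by the 9-array mean) among those with 1 gene, and it was tested if 3 or more arrays lay above the dimness limit, the 40th percentile of an array (5.02 on average), which left 13447 genes and set aside 4747. All 9 arrays entered 1 limma 3.58.1 fit (lmFit and eBayes, R 4.3.3, genotype only, 6 residual degrees of freedom), with 2-sided p Benjamini-Hochberg adjusted over all genes and a threshold of 0.05. The same fit was made over 23735 probe sets. The script was checked on simulated data. The versions of data.table, pandas and matplotlib were 1.17.8, 2.3.3 and 3.10.9.

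All 9 enzymes are named, with every list gene that was called or is described by its role, and the 5 genes most like their median. The enzymes and lists were chosen with earlier results of these data known, so a list is described by its counts and median and has no test of its own. The alternatives were the choice of probe set, the filter, a floor, the normalization, the model and each array left out. Replicate numbers were not used to pair arrays in the main fit. Same-numbered arrays of different genotypes deviated from their group means with correlations of -0.08 to 0.26, over 0.1 in 2 of 9 pairs. For differently numbered arrays they were -0.20 to 0.17, over 0.1 in 5 of 18 pairs. These values overlap and do not settle whether the numbers pair arrays. Some genes of the pathway are not reported here.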

Additional observations from a re-analysis of the deposited data

How the results depend on the processing

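In DM against wildtype 9 enzymes were called under each of the 9 other settings of filter, probe set, normalization, floor, model and block, and 8 or 9 with 1 array left out. Falls over all genes numbered 1858 to 2610 under those settings and 1685 to 2791 with 1 array left out, against 2442 in the main fit. In Bmp15-/- against wildtype, where 4 were called, the other settings gave 4 to 6. It was 6 with the mean of a gene's probe sets, with only the 2 genotypes compared and with a trended, robust prior. Over all tested genes 865, 1289 and 826 fell in these fits, against 777 in the main fit. Leaving out 1 array gave 0 to 6, with 0 or 1 whenever a Bmp15-/- or wildtype array was left out and 5 or 6 without a DM array. Falls over all genes numbered 293 to 570 in the former fits and 775 to 1117 in the latter. In DM against Bmp15-/-, where 4 were called, the other settings gave 3 to 5 and leaving out 1 array gave 3 to 7, with 7 without DM 2. Under the other settings 54 to 308 of all genes fell in that comparison, against 216 in the main fit. Every fit with 1 array left out has fewer residual degrees of freedom, also those without a DM array. The cause of these differences was not tested. No enzyme changed sign under any setting in any comparison. With the replicate number as a block, 9, 5 and 5 enzymes were called in DM against wildtype, Bmp15-/- against wildtype and DM against Bmp15-/-, adding Msmo1 (adjusted p = 0.0382) and Sqle (adjusted p = 0.049). Over all genes 2310, 673 and 167 fell with the block, against 2442, 777 and 216 in the main fit. No scaling moved the median change of all genes by over 0.1. At the brightest probe set of each gene, the lowest value, 6.15 for Lss on DM 3, lay above the highest dimness limit of 5.05. Precision is limited by 3 arrays per genotype.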
